A study of Danio rerio with 24 samples.

Results

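Gene expression in the brain of uninjured adult zebrafish was compared with that in whole kidney marrow, on 2 RNA-seq libraries per tissue. These 4 libraries were chosen by their labels for tissue and treatment, out of 14 RNA-seq libraries and 24 samples in all. All fish are labelled as wild type of the EK strain and were males aged 4 to 12 months. The protocol shared by every sample gives a bath of 17 h in 0.5 to 0.7 µM tamoxifen, with tissue taken 7 days later. Whether uninjured fish went through that bath, and which transgene makes tamoxifen ablate cardiomyocytes in the injured fish, is not given in the sources used here. Libraries kept out of the comparison served as a second reading of the same genes: 2 ablated brain and 2 ablated kidney marrow libraries with the same strain and genotype labels, and 3 ablated brain libraries of wild type fish from a separate experiment on the gene cebpd. No label ties a replicate to an animal of its own, so p-values measure only the spread between libraries, which may be technical.

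The zebrafish kidney combines filtration with blood formation: nephrons filter blood and recover salts, sugars and amino acids, and the tissue between the tubules is the adult site of blood formation. The protocol says that the whole kidney was frozen, so the libraries called kidney marrow hold nephron as well as blood-forming tissue. The adult brain keeps radial glia beside its neurons, and these glia express the aromatase gene cyp19a1b. An ancestor of teleost fish duplicated its genome, and many genes survive as a pair named with a final a and b, so the tissues can be asked which copy each uses.

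The brain libraries held 15433085 and 16022106 reads in genes, and the kidney marrow libraries 18734204 and 19444235. Spearman correlations of counts across genes were 0.997 between the brain libraries, 0.990 between the marrow libraries and 0.651 to 0.657 between tissues. In brain, 57.3% to 57.4% of reads fell in no gene, against 40.0% to 41.5% in kidney marrow. 1 gene, zgc:158463, annotated as an rRNA gene in the RefSeq table of GRCz12tu, took 14.7% and 18.2% of gene reads in brain and 15.2% and 8.46% in kidney marrow. Levels below are CPM, counts scaled to library size by TMM, which do not allow for gene length, so they compare tissues and not genes. Fold changes are log2 of brain over kidney marrow, positive when a gene is higher in brain, and a gene is called when its edgeR adjusted p is under 0.05.

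A low level of each tissue's most abundant transcripts was counted in the other tissue. Of 1304 genes higher in kidney marrow at 100 CPM or more, none had fewer than 13 reads summed over both brain libraries. Of 1329 such genes higher in brain, none had fewer than 8 reads over both marrow libraries. The 51 marrow genes with a log2 fold change under -8 summed to 132 and 162 RPM (reads scaled to all gene reads as CPM are, but without TMM) in the uninjured brain libraries, and to 165 and 167 in the ablated ones. In the 3 wild type brain libraries of the cebpd experiment they summed to 23.3, 25.9 and 27.2, and 17 to 21 of the 51 had no read. These 3 libraries are shallower, at 4377028 to 6280007 gene reads, and the count of genes with no read is not scaled for depth. The 39 brain genes over 8 summed to 66.7 and 65.8 RPM in uninjured kidney marrow, and to 71.4 and 41.6 after ablation. What sets this low level, and why it differs between the experiments, was not tested. A call of restriction here means next to no reads at this depth, not absence.

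The tissues differed in most of what they express. Of 12936 tested genes, 5036 were called higher in brain (38.9%) and 5065 higher in kidney marrow (39.2%), while 2835 did not pass. These shares are the background for every count of called list members below. Those called at least 2-fold higher were 3559 in brain (27.5%) and 3703 in marrow (28.6%), and those called at least 16-fold higher were 1348 and 812. The median log2 fold change was -0.0016 and the middle 50% of genes ran from -1.31 to 1.22. The 2 libraries of a tissue lay wholly above those of the other in 45.3% of genes for brain and 45.1% for marrow, and no called gene had overlapping libraries. Scaling by library totals alone shifts the median of all genes by 0.22 toward brain, so changes below that size depend on the scaling. In bulk tissue, fewer cells of a type and less RNA per cell cannot be told apart, here and in every result that follows.

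**Figure D1:**
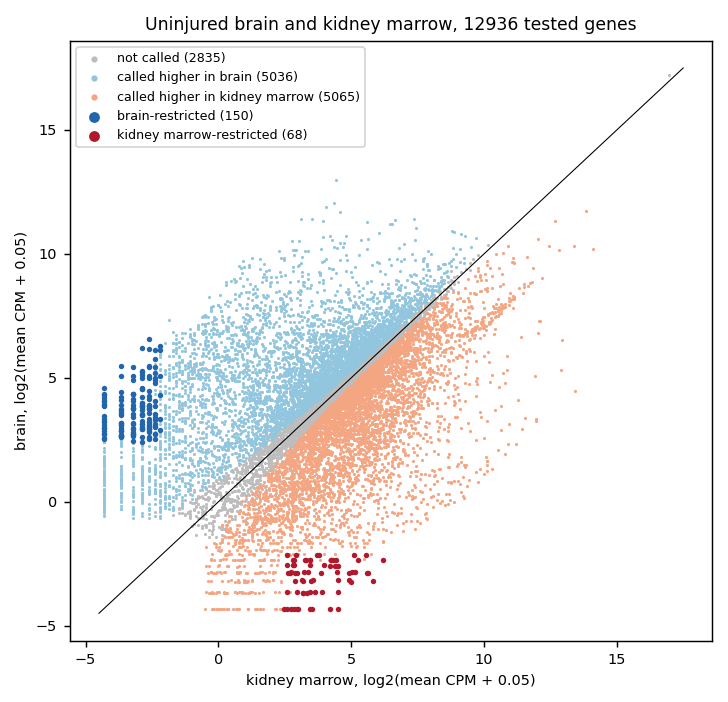
Mean level of each tested gene in kidney marrow (x axis) and brain (y axis), both as log2 of CPM plus 0.05, with the line of equal level. Colour marks the 5036 genes called higher in brain, the 5065 called higher in marrow and the 2835 not called, which lie along the line. The 150 brain-restricted and 68 marrow-restricted genes lie in the columns and rows near 0 of the other tissue, and the restricted genes stay under 100 CPM.

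The same contrast in libraries that were not used gave nearly the same picture. In a separate fit of ablated brain against ablated kidney marrow, 5273 of 12874 genes were called higher in brain (41%) and 5304 higher in marrow (41.2%). Of 5006 uninjured brain calls tested there, 4733 were called in the same direction and 13 in the opposite one. Of 4998 marrow calls, 4677 were called in the same direction and 1 in the opposite one.

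Genes of neuronal identity and synaptic release stood far higher in brain. Of 37 tested genes of neurons and synaptic vesicles, 36 were called higher in brain, none in marrow and 1, syt1b, not called, against the 38.9% of all genes called higher in brain. Their median log2 fold change was 6.55, and the list summed to 22938 and 22719 CPM in brain against 321 and 324 in marrow. snap25a, a SNARE protein of vesicle fusion, stood at 4279 ± 58.2 CPM in brain and 20.1 ± 1.04 in marrow (mean ± SD, n = 2 per tissue, as throughout). This is a log2 fold change of 7.73 (SE 0.11). elavl4, which encodes a neuronal RNA-binding protein, stood at 1373 ± 26.1 and 23.6 ± 1.12 CPM. nsfa, the ATPase that takes SNARE complexes apart, stood at 1141 ± 21.1 and 6.88 ± 0.188 CPM.

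Most genes of fast transmission followed. Of 21 tested genes of glutamate, GABA and glycine transmission, 18 were called higher in brain and 2 higher in marrow. slc32a1, the vesicular GABA transporter, was at 466 and 460 CPM in the brain libraries and at 1.13 and 1.19 in the marrow libraries. slc17a6a, a vesicular glutamate transporter, was at 326 and 282 against 0.679 and 0.794 CPM. gad2, which makes GABA, was at 1655 ± 24.7 against 15.1 ± 1.27 CPM. The exceptions were gls2b and camk2d1. gls2b, a glutaminase, had 0 and 1 read in the brain libraries and 12.4 and 17.0 CPM in marrow, while camk2d1, a calcium-dependent kinase, differed by -0.27 (SE 0.09), a call that ended under library totals alone (-0.04), with DESeq2 (-0.25), without either brain library (-0.23 and -0.27) and in the fit of all 8 libraries (-0.21).

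Of 80 tested neurotransmitter receptor genes, 70 were called higher in brain and 6 in marrow, with a median of 5.66, or 5.20 with genes at 0 reads in a tissue set at their bound. gria2b, an AMPA receptor subunit, was at 838 and 830 CPM in brain against 2.04 and 1.64 in marrow, a log2 fold change of 8.82 (SE 0.14). grin1a, the obligatory NMDA receptor subunit, was at 1115 ± 20.1 against 10.2 ± 2.14 CPM. The 6 receptor genes called higher in marrow were the adrenergic receptor genes adra1bb, adrb2b, adrb3a and adrb3b, the muscle-type acetylcholine receptor gene chrna1 and the GABA receptor gene gabrr3a. The call ended without brain replicate 1 for adra1bb (-2.91) and without brain replicate 2 for chrna1 (-1.44). adrb3b had no read in either brain library and 5.69 ± 1.17 CPM in marrow, at least 64.5-fold higher against a floor of 3 reads over both brain libraries. The channel families were less one-sided, with 65 of 82 voltage-gated and potassium channel genes higher in brain and 11 higher in marrow. scn8aa, a neuronal sodium channel, was at 629 ± 1.86 against 3.45 ± 0.00619 CPM, whereas the renal potassium channel gene kcnj1a.1 was at 1.03 ± 0.0701 against 158 ± 12.8 CPM.

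Protocadherins, cell adhesion proteins that mark neurons combinatorially, were called higher in brain in 57 of 58 tested genes and in none for marrow (median 5.30). The exception pcdh8 was at 0.705 ± 0.0457 and 0.141 ± 0.2 CPM. Of 38 neuropeptide and secretory granule genes, 37 were called higher in brain, led by cpe, which trims peptide precursors, at 2499 ± 72.9 against 47.7 ± 0.0854 CPM. adcyap1b, a gene for the peptide PACAP, was at 744 ± 17.2 against 2.15 ± 0.0762 CPM. The exception was npb, at 63.7 ± 2.89 in brain and 114 ± 19.7 in marrow (log2 fold change -0.84, SE 0.14).

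Genes of the anterior pituitary were low in the brain libraries, although 7 of 9 tested were called higher there and none in marrow. gh1 and lhb, for growth hormone and the beta chain of luteinizing hormone, had 0 reads in all 4 libraries, and the prolactin gene prl had 19 and 26 reads in brain. The proopiomelanocortin gene pomca had 88 and 83 reads. The 9 tested members summed to 54.1 and 55.4 CPM in brain and to 15.7 and 14.6 CPM in marrow.

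Monoamine genes did not follow the neuronal pattern. Of 20 tested, 12 were called higher in brain and 6 in marrow. ddc, the decarboxylase that makes dopamine and serotonin and is also known from mammalian kidney tubule, was at 91.3 ± 2.86 CPM in brain and 7852 ± 149 in marrow, a log2 fold change of -6.43 (SE 0.10). mao, the monoamine oxidase, was at 157 ± 3.69 and 4277 ± 35.4 CPM. Genes for the first step of a transmitter's synthesis had other values. tph2, for serotonin, was higher in brain at 15.5 ± 0.411 against 1.90 ± 0.604 CPM, as was chata, for acetylcholine, at 50.2 ± 3.36 against 2.32 ± 0.316. tph1a and tph1b, for the same step as tph2, were divided. tph1a was higher in brain at 8.77 ± 0.134 against 0.792 ± 0.559 CPM, and tph1b higher in marrow, at 1.67 ± 0.369 in brain against 7.37 ± 5.06. th, for dopamine, was at 10.999 ± 0.0806 against 15.5 ± 6.43 with no call (adjusted p = 0.17).

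Transcription factor genes of the forebrain, midbrain and hindbrain were called higher in brain in 80 of 86 genes and in marrow in 4, with a median of 5.71 (5.48 at the bound). zic1 was at 641 and 750 CPM in brain and 2.15 and 1.36 in marrow. neurod1, a driver of neuronal differentiation, was at 598 ± 68.6 against 1.78 ± 0.517 CPM. The 4 exceptions were emx1, emx2, sim1a and sim1b. emx1, known from the dorsal forebrain and also from the zebrafish nephron, was at 3.21 ± 0.994 CPM in brain and 101 ± 15.8 in marrow (-4.97, SE 0.23). sim1b was at 1.35 ± 0.0113 and 33.0 ± 4.63 CPM.

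Glial genes were higher in brain with more exceptions. Of 26 radial glia genes, 20 were called higher in brain and 1, glulb, in marrow, and of 18 myelin genes 14 were called higher in brain and 3 in marrow. The call of glulb ended under library totals alone (-0.56) and without brain replicate 1 (-0.70) or 2 (-0.82). Among the myelin genes, the marrow call of aspa ended without brain replicate 1 (-1.05) or 2 (-1.10). That of cldn11a ended there too (-0.33 and -0.58), under library totals alone (-0.25) and with DESeq2 (-0.45). The brain call of ugt8 ended without brain replicate 1 (0.65) or 2 (0.83). slc1a2b, the glial glutamate transporter, was at 2714 ± 118 against 8.49 ± 1.11 CPM (log2 fold change 8.32, SE 0.14). cyp19a1b, aromatase B, was at 1465 ± 55.4 against 8.07 ± 0.375 CPM. mag, a myelin protein, was at 332 ± 11 against 1.5003 ± 0.117 CPM.

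Motile cilia genes were mostly higher in kidney marrow, although ependymal cells of the brain carry such cilia. Of 26 ependymal and motile cilia genes, 23 were called higher in kidney marrow and 2 in brain, against 39.2% of all genes called higher in marrow. foxj1a, the regulator of motile cilia, was at 14.6 ± 1.84 CPM in brain and 69.3 ± 12.9 in marrow (-2.24, SE 0.18). dnah9, an axonemal dynein, was at 1.06 ± 0.0564 and 27.0 ± 2.77 CPM. Zebrafish nephrons carry multiciliated cells, which is background and not a result here. The 2 genes called higher in brain, ift88 and ift172, encode transport proteins of all cilia, and the call of ift172 ended without brain replicate 1 (0.55) or 2 (0.62).

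The photoreceptor and pineal list had 25 of 32 tested genes higher in brain and 3 in marrow, at levels that varied between brain libraries. rho, rod opsin, was at 28.5 and 48.2 CPM in uninjured brain, at 14.1 and 1.09 CPM in the ablated brain libraries, and at 12, 10 and 18 reads in the 3 wild type brain libraries of the cebpd experiment. The 25 genes summed to 227 and 353 RPM in uninjured brain and 281 and 130 after ablation. In the 3 wild type brain libraries of the cebpd experiment they summed to 68.5, 306 and 350 RPM, so replicate libraries of a group differed. The pineal opsin gene exorh was at 20.5 ± 3.54 against 0.962 ± 0.158 CPM. What tissue these reads came from was not tested.

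**Figure D2:**
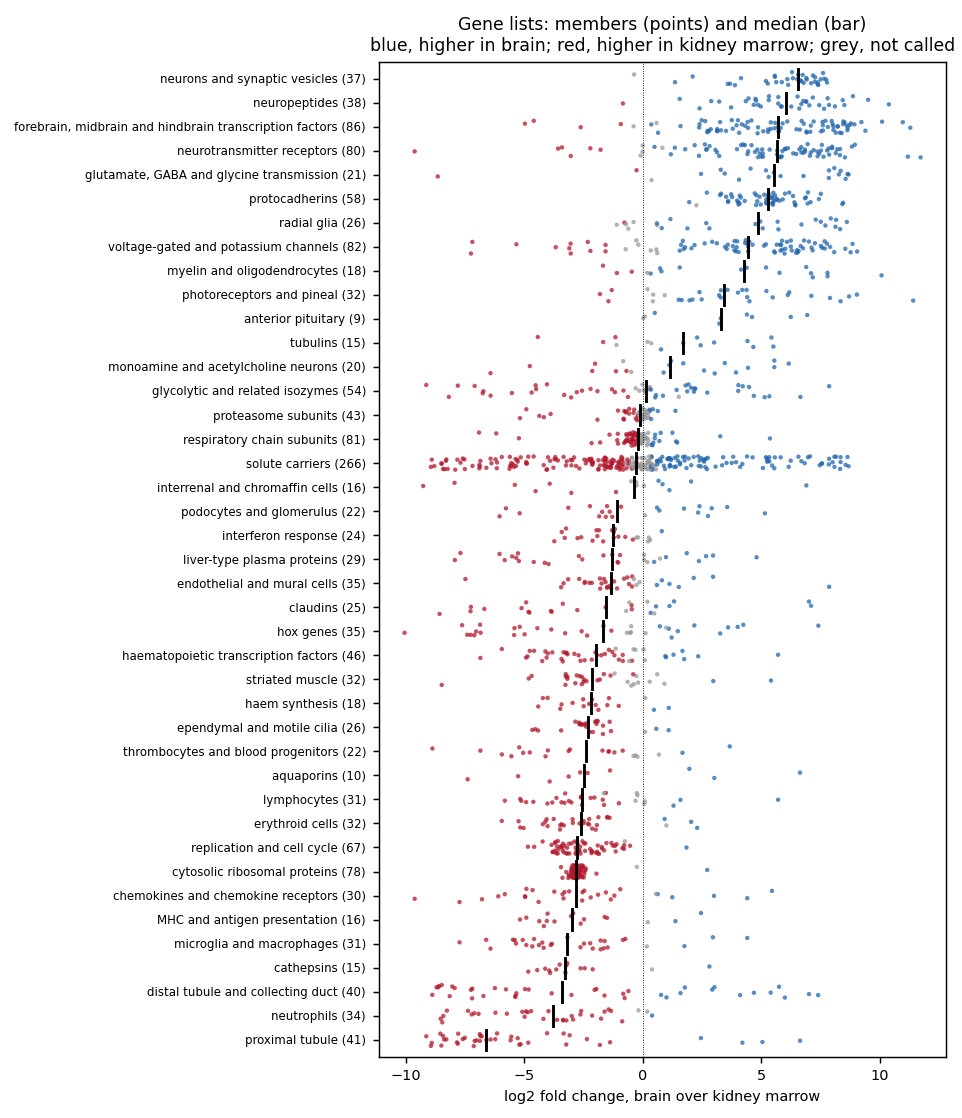
Log2 fold change of every tested member (points, coloured by call) and the median (bar) of 41 gene lists, with the number of tested members in brackets. Lists are ordered by median, from proximal tubule (-6.60) to neurons and synaptic vesicles (6.55), and members of one list spread by several log2 units. Genes with 0 reads in a tissue are drawn at their fitted value, which is not a bound.

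Genes with next to no reads in kidney marrow numbered 150 of the tested genes (1.16%): called higher in brain, at least 5 CPM in each brain library and at most 3 reads in each marrow library. Without marrow replicate 1 the count was 227. The limit of 3 reads then applied to 1 marrow library only, which loosens the rule. The mean level of the 150 in brain ran from 5.32 to 95.1 CPM with a median of 11.7, and 21 of them had 0 reads in both marrow libraries. In the ablated libraries, 144 of the 150 were again at 5 CPM or more in both brain libraries, 116 again had at most 3 reads in each marrow library, and 112 did both. The largest exception, tac3a, a neurokinin B precursor gene, reached 48 reads in an ablated marrow library. The threshold cuts through a continuum: 52 of the 150 had exactly 3 reads in a marrow library, and 42 further genes missed the rule at 4 reads.

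The most abundant was nrn1a, which encodes neuritin, a protein of neurite growth. It was at 100 and 89.9 CPM in the brain libraries and had 3 and 1 reads in the marrow libraries, a ratio of 842 (95% Clopper-Pearson counting interval 328 to 3091, which covers counting error only). The rule chose genes by these same marrow reads, so the ratios of restricted genes are no independent estimates. In the ablated marrow libraries nrn1a had 9 and 5 reads, over the limit of 3. bhlhe22, a neuronal transcription factor, was at 85.6 and 71.8 CPM with 3 and 3 marrow reads, a ratio of 465 (213 to 1267). Several patterning genes were among the 10 most abundant, clone-named genes left out. zic4 was at 62.5 and 80.9 CPM with 1 and 3 marrow reads, barhl1b at 64.2 and 73.2 CPM with 3 and 3, and pax6a at 41.9 and 45.8 CPM with 3 and 1. In ablated marrow bhlhe22 again had 3 and 3 reads. There zic4 had 5 and 3, barhl1b 5 and 3, and pax6a 3 and 6, each over the limit in a library. tbr1b, known from glutamatergic neurons of the pallium, was at 47.7 and 40.0 CPM in uninjured brain and at 58.1 and 59.3 CPM after ablation, but had 24, 26 and 43 reads in the 3 wild type brain libraries of the cebpd experiment, where pax6a had 376, 375 and 514. The difference between the experiments was not tested.

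Genes of peptides and channels were also among them. sst1.1, a somatostatin gene, was at 71.3 and 66.9 CPM with 3 and 2 marrow reads (ratio 489, 209 to 1507), and kcnd2, an A-type potassium channel, at 42.7 and 46.8 CPM with 1 and 3. In ablated marrow sst1.1 had 2 and 2 reads and kcnd2 had 2 and 4. kctd4, at 46.6 and 42.8 CPM, had 1 read in marrow replicate 1 and none in replicate 2, which gives a ratio of 1581 with a wide interval (283 to 62504). fam19a5, a secreted neural protein, was at 53.2 and 54.6 CPM. Of the 150, 58 belong to at least 1 of the 41 lists. These include 18 brain transcription factors, 10 neurotransmitter receptors (among them the serotonin receptor genes htr1aa, htr1b and htr1d and the dopamine receptor genes drd1b, drd2a and drd3), 8 protocadherins and 7 neuropeptide genes (crhb, pmch, pmchl, avp, tac3a, adcyap1a and sst1.1). htr1aa had no marrow read at 25.1 and 23.3 CPM in brain, at least 285-fold higher, and drd2a none at 17.1 and 16.2 CPM, at least 196-fold higher.

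Outside the restricted genes, and among called genes at 5 CPM or more in both brain libraries with clone-named genes left out, the largest fitted differences toward brain were of pcp4a, gria2b, lmo3, atp2b3b, ksr2, slc17a6a, neurod6b, slc32a1, zic1 and s100b, with log2 fold changes of 8.603 to 9.43. pcp4a, a calmodulin-binding protein gene, was at 163 and 159 CPM in brain and at 0.113 and 0.340 in marrow. atp2b3b, a plasma membrane calcium pump, was at 756 and 707 against 1.75 and 1.53 CPM.

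**Figure D3:**
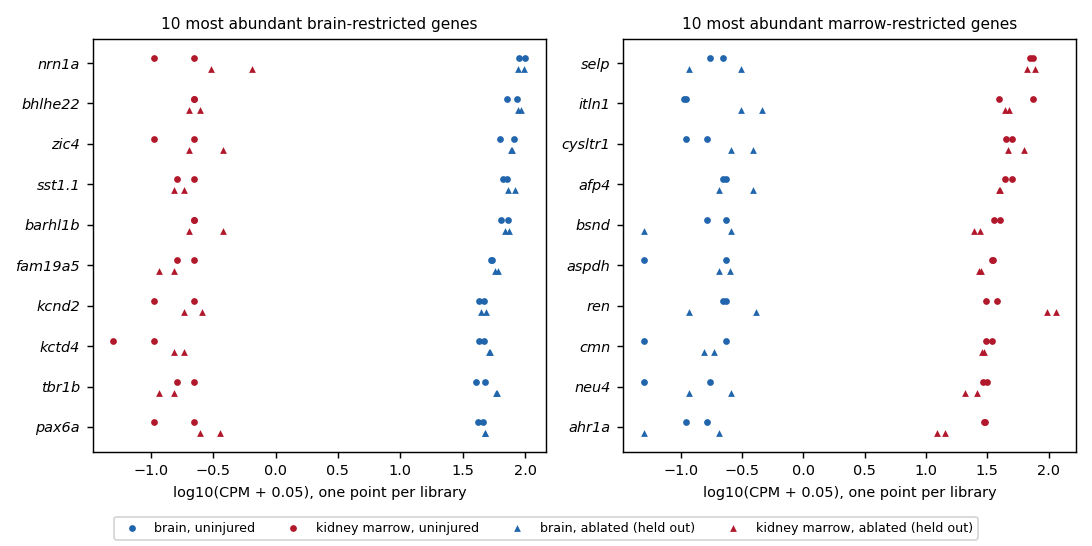
The 10 most abundant named genes restricted to brain (left) and to kidney marrow (right), as log10 of CPM plus 0.05 with one point per library. Circles are the uninjured libraries that chose the genes and triangles the ablated libraries that did not. The tissues stay apart by more than 1 log10 unit in every gene shown, and ren is higher in ablated than in uninjured marrow.

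Blood cell genes were mostly higher in kidney marrow. Of 34 neutrophil genes, 31 were called higher in marrow and 1 in brain (median -3.80). lyz, lysozyme, was at 7.50 ± 1.15 CPM in brain and 2769 ± 177 in marrow, a log2 fold change of -8.53 (SE 0.16). mpx, myeloperoxidase, was at 8.96 ± 0.81 and 667 ± 178 CPM. lect2l, a leukocyte chemotaxin gene, was at 1.93 ± 0.313 and 599 ± 104 CPM.

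Of 32 erythroid genes, 28 were called higher in marrow and 3 in brain (median -2.59). hbaa1, an alpha globin, was at 111 ± 18.3 CPM in brain and 4206 ± 1205 in marrow, and slc4a1a, the anion exchanger of red cell membranes, at 24.4 ± 2.38 and 1510 ± 444. Both marrow replicates lay above both brain replicates, but the marrow libraries differed from each other, and the whole erythroid list summed to 12184 and 8623 CPM in the marrow libraries against 969 and 959 in the brain libraries. Genes of haem synthesis were called higher in marrow in 15 of 18 cases, with alas2, the erythroid first step, at 51.0 ± 0.283 and 827 ± 227 CPM.

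Lymphocyte genes were called higher in marrow in 22 of 31 cases and in brain in 3, and thrombocyte and progenitor genes in 16 of 22 and 2. rag1, the recombinase of lymphocyte receptor genes, was at 0.412 ± 0.0219 CPM in brain and 15.1 ± 2.59 in marrow. myb, the transcription factor of blood progenitors, was at 1.45 ± 0.368 CPM in brain and 168 ± 24.6 in marrow (-6.85, SE 0.21). cxcr4b, the receptor of the chemokine made by marrow stroma, was at 5.52 ± 0.751 and 312 ± 21.8 CPM, and its ligand gene cxcl12a at 59.3 ± 1.49 and 1859 ± 196 CPM. The second ligand gene, cxcl12b, went the other way, at 99.8 ± 0.941 in brain and 42.2 ± 4.72 in marrow. The 3 lymphocyte list genes called higher in brain were bcl11ba, gata3 and tcf7, of which bcl11ba and gata3 are known from neurons as well, and the call of tcf7 ended without brain replicate 1 (1.08). bcl11ba was at 40.1 ± 1.18 against 0.764 ± 0.0414 CPM, and gata3 at 121 ± 8.61 against 40.3 ± 10.9.

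Macrophages live in both tissues, as microglia in the brain, yet 27 of 31 microglia and macrophage genes were called higher in marrow and 3 in brain (median -3.18). csf1ra, a gene for the macrophage receptor Csf1r, was at 24.6 and 28.1 CPM in brain and 73.9 and 73.7 in marrow. apoeb, a gene of microglia that other brain cells may also use, was higher in brain at 327 ± 9.84 against 42.2 ± 14.5 CPM, and ccl34b.1, known from zebrafish microglia, at 42.1 ± 1.34 against 1.98 ± 1.205. Antigen presentation genes were called higher in marrow in 13 of 16 cases and in brain in 2, cathepsins in 13 of 15 and 1, chemokine genes in 24 of 30 and 5, and interferon response genes in 18 of 24 and 1. ctsf, the 1 cathepsin gene higher in brain, was at 887 ± 15.6 against 127 ± 13.8 CPM, while ctsz was at 13.7 ± 1.98 against 300 ± 3.82.

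Nephron genes were mostly higher in kidney marrow. Of 41 proximal tubule genes, 37 were called higher in marrow and 4 in brain, with a median of -6.60, the lowest of the 41 lists. slc22a2, an organic cation transporter, was at 39.4 ± 5.30 CPM in brain and 7607 ± 242 in marrow. slc5a2, the sodium-glucose transporter of the proximal tubule, was at 0.680 and 1.22 CPM in brain and 432 and 501 in marrow, a log2 fold change of -8.94 (SE 0.23). The endocytic receptor gene lrp2a, for megalin, was at 34.5 ± 0.413 and 1275 ± 182 CPM. The 4 genes called higher in brain were slc4a4a (631 ± 25.9 against 116 ± 1.65 CPM), a bicarbonate transporter also known from glia, gatm, slc22a7a and aqp8b, the last with no marrow read and 0.707 ± 0.0376 CPM in brain (at least 8.31-fold higher).

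Of 40 distal tubule and collecting duct genes, 27 were called higher in marrow (67.5%) and 13 in brain (32.5%). slc12a3, the thiazide-sensitive sodium chloride cotransporter, was at 4.19 ± 1.43 and 1492 ± 14.6 CPM. hnf1bb, a nephron transcription factor, was at 2.04 and 2.63 CPM in brain and 1027 and 1171 in marrow (-8.88, SE 0.17). Podocyte genes were nearer even, with 12 of 22 higher in marrow (54.5%) and 9 in brain (40.9%). Among all tested genes these shares were 39.2% and 38.9%. nphs1, for nephrin of the slit diaphragm, was at 2.49 and 2.81 CPM in brain and 20.8 and 26.1 in marrow. Among the members higher in brain was robo2, a guidance receptor gene also known from axons, at 196 ± 6.30 against 5.52 ± 0.691 CPM.

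Steroid-making interrenal cells sit in the fish head kidney, and of 16 interrenal and chromaffin genes 7 were called higher in marrow and 5 in brain (43.8% and 31.3%), near the shares of all tested genes. star, which brings cholesterol into mitochondria, was at 1.24 ± 0.0658 CPM in brain and 52.5 ± 27.3 in marrow. cyp11a1, the first enzyme of steroid synthesis, had 0 and 1 reads in brain and was at 26.8 and 18.3 CPM in marrow, a ratio of 766 (137 to 30296). Of 32 striated muscle genes, 21 were called higher in marrow (65.6%) and 2 in brain (6.25%), and 9 did not pass. Among all tested genes 39.2% were called higher in marrow and 38.9% in brain. mb, myoglobin, was at 3.11 ± 0.873 and 1110 ± 264 CPM, while the muscle myosin genes myhz1.1 and myhz2 stayed near 1 CPM in both tissues. Of 35 endothelial and mural genes, 25 were higher in marrow (71.4%) and 7 in brain (20%). slc2a1a, the glucose transporter of brain vessels, was at 126 ± 8.17 CPM in brain and 0.538 ± 0.281 in marrow (7.86, SE 0.24), and sele, the E-selectin gene of activated endothelium, at 1.90 ± 0.273 and 343 ± 32.3 (-7.48, SE 0.16).

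Of 46 haematopoietic transcription factor genes, 33 were called higher in marrow and 7 in brain. cebpa, a regulator of granulocytes, was at 36.7 CPM in brain and 343 in marrow, and cebpb at 10.9 and 334. Of 25 claudin genes of tight junctions, 15 were higher in marrow and 6 in brain, with cldnc at 0.594 against 227 CPM and cldnk, known from zebrafish myelin, at 113 against 0.821. Of 10 aquaporin genes, 7 were higher in marrow (70%) and 3 in brain (30%). Among 266 solute carrier genes, 125 were higher in marrow (47.0%) and 91 in brain (34.2%), against 39.2% and 38.9% of all tested genes.

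Of 29 plasma protein genes typical of liver, 18 were called higher in marrow (62.1%) and 7 in brain (24.1%). Among all tested genes these shares were 39.2% and 38.9%. f2, prothrombin, was at 0.509 CPM in brain and 124 in marrow, whereas cp, the copper oxidase ceruloplasmin, was at 526 ± 11.7 against 18.9 ± 3.13 (4.79, SE 0.14). Of 15 tubulin genes, 9 were higher in brain (60%) and 3 in marrow (20%), with the alpha tubulin genes tuba1c at 623 against 13.7 CPM and tuba8l at 18.4 against 397.

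Genes of dividing cells were higher in kidney marrow. Of 67 replication and cell cycle genes, 65 were called higher in marrow and 1 in brain (median -2.78). mki67, expressed in cycling cells, was at 12.1 ± 0.978 and 152 ± 41.1 CPM. The exception, rrm2b, a ribonucleotide reductase subunit known for repair in resting cells, was at 31.4 ± 1.67 against 8.78 ± 0.625 CPM.

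Genes with next to no reads in brain numbered 68 (0.526%), by the same rule turned round. They were at 5.49 to 72.4 CPM in marrow with a median of 10.9, and 10 had 0 reads in both brain libraries. In the ablated libraries, 56 of the 68 were again at 5 CPM or more in both marrow libraries, 44 again had at most 3 reads in each brain library, and 35 did both. In the 3 wild type brain libraries of the cebpd experiment, which have 4377028 to 6280007 gene reads, 64 of the 68 had at most 3 reads in each. At the threshold, 29 genes had exactly 3 reads in a brain library and 13 further genes missed the rule at 4.

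selp, the P-selectin gene of platelets and endothelium, was the most abundant, at 70.9 and 73.9 CPM in marrow with 3 and 2 brain reads, a ratio of 492 (211 to 1517), and it had 0 reads in all 3 wild type brain libraries of the cebpd experiment, which are shallower. In the ablated brain libraries selp had 1 and 5 reads, over the limit of 3 in a library. itln1, an intelectin gene, varied between the marrow libraries at 73.8 and 39.6 CPM. Kidney genes were in this group as well. bsnd, the barttin subunit of renal chloride channels, was at 35.9 and 39.7 CPM with 2 and 3 brain reads, and ren, renin, at 38.2 and 30.5 CPM with 3 and 3. ren reached 114 and 97.6 CPM in the ablated marrow libraries, above both uninjured ones. Among the others, cysltr1, a leukotriene receptor, was at 50.2 and 45.0 CPM, afp4 at 43.8 and 50.3, aspdh at 34.6 and 35.2, cmn at 34.6 and 30.7, neu4, a sialidase, at 29.2 and 31.4, and the aryl hydrocarbon receptor gene ahr1a at 30.3 and 29.4, with 14.1 and 12.2 in the ablated marrow. In ablated brain itln1 had 6 and 5 reads, cysltr1 5 and 4, and afp4 5 and 3. There bsnd had 0 and 4, ren 1 and 7, and neu4 1 and 4, so all of these passed the limit in a library. aspdh (3 and 3), cmn (2 and 2) and ahr1a (0 and 3) did not. Of the 68, 12 belong to a list and 21 carry clone names.

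By the same rule, the largest fitted differences toward marrow outside the restricted genes were of fbp1b, slc5a2, pdzk1, slc2a9l1, pah, hnf1bb, tdo2b, ftcd, slc9a3.1 and pvalb9, with log2 fold changes of -9.14 to -8.73. pah, phenylalanine hydroxylase, was at 3.46 and 4.096 CPM in brain and 1795 and 1783 in marrow. fbp1b, a gluconeogenic phosphatase, was at 1.02 and 1.1003 against 491 and 709 CPM. tdo2b, which opens the ring of tryptophan, was less even between the marrow libraries, at 546 and 264 CPM against 0.850 and 0.917 in brain.

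The hox genes, which give position along the body axis, divided by their group number. The grouping was made after the values were seen and has no test. Of 16 tested genes of groups 1 to 5, 8 were called higher in brain and 2 in marrow (median 0.85), of 17 of groups 6 to 10, 2 were higher in brain and 15 in marrow (median -5.42, or -4.004 with 5 genes at their bound), and the 2 of groups 11 to 13 were both higher in marrow. hoxb5b was at 9.36 and 12.2 CPM in brain and had 0 and 2 reads in marrow, a ratio of 190 (52.1 to 1572). hoxb8a was at 3.97 and 4.89 CPM in brain and 158 and 167 in marrow (-5.20, SE 0.14). hoxc9a had no brain read and was at 5.77 and 9.52 CPM in marrow, at least 86.6-fold higher.

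The brain level of hox genes was not the same in both experiments. The 16 genes of groups 1 to 5 summed to 92.6 and 94.4 RPM in uninjured brain and to 106 and 116 in ablated brain. Their sums in uninjured marrow were 63.8 and 68.4 RPM. In the 3 wild type brain libraries of the cebpd experiment they summed to 20.6, 8.86 and 20.1, below both uninjured marrow libraries. The higher sum in brain thus held only against the brain libraries of the main comparison and the ablated ones. hoxb5b had 0, 0 and 3 reads in the 3 libraries of the cebpd experiment. The 19 genes of groups 6 to 13 summed to 20.2 and 21.2 RPM in uninjured brain and to 1.37, 1.03 and 0.478 in those 3 libraries, against 330 and 382 in uninjured marrow. The 37 neuron genes summed to 25250 and 24081 RPM in uninjured brain and 26914, 27418 and 28272 in the other libraries. The libraries of the cebpd experiment are also shallower, a difference that RPM values are scaled for. What sets the lower hox sums there was not tested.

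**Figure D4:**
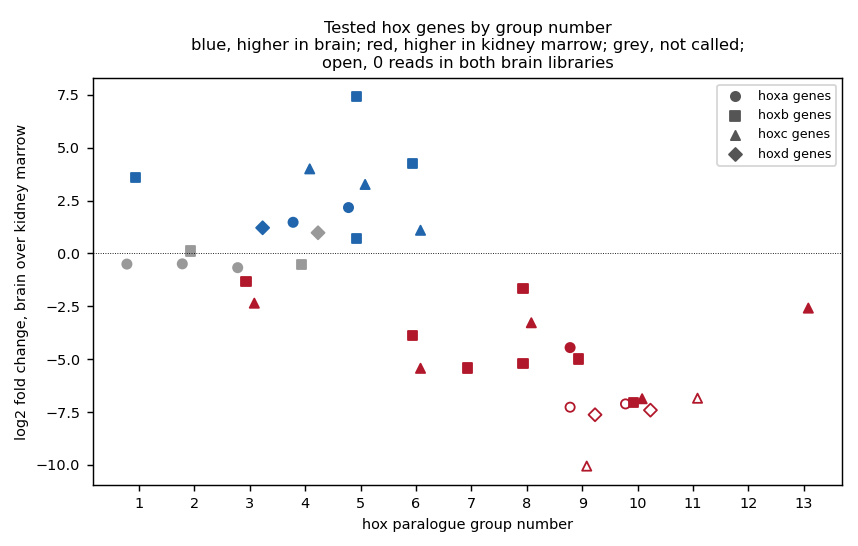
Log2 fold change of the 35 tested hox genes (y axis) by paralogue group number (x axis), with a symbol per cluster and the call as colour. Open symbols mark the 6 genes with 0 reads in both brain libraries, drawn at fitted values that are not bounds. Groups 1 to 5 lie between -2.35 and 7.401, and from group 7 upward every tested gene is under 0.

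Some paralogue pairs were divided between the tissues. Of 1185 pairs with both genes tested, 228 had members called in opposite directions (19.2%), 407 had both higher in brain, and 207 both higher in marrow. In 289 pairs 1 member was not called and in 54 neither was. Pairs called in the same direction were thus more common than split ones, and among all tested genes 38.9% were called higher in brain and 39.2% in marrow. The a gene was the one higher in brain in 104 of the 228 pairs and the b gene in 124. In 116 pairs both members were at least 2-fold different, and in 189 of the 228 both members were called in the same directions in the ablated libraries. The count fell with either brain library left out and rose with either marrow library left out, in fits that leave 1 library in a tissue. Pairs were taken from symbols, so near-identical copies may share reads, and that was not measured.

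The pairs with the largest difference in both members ran from metabolism to signalling. fut9a, a fucosyltransferase, was at 33.3 and 32.6 CPM in brain with 0 and 4 reads in marrow, and fut9b at 0.0567 and 0.306 CPM in brain and 9.61 and 6.29 in marrow. rgra and rgrb, retinal G protein coupled receptor genes, were at 20.1 and 23.6 against 0.226 and 0.170 CPM and at 1.53 and 1.90 against 54.3 and 76.0. The sodium pump beta subunit showed the division at high levels. atp1b1a was at 154 and 156 CPM in brain and 4262 and 4495 in marrow (-4.82, SE 0.09), and atp1b1b at 937 and 889 against 4.69 and 6.18 (7.39, SE 0.16).

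Creatine kinase and glucose 6-phosphate transport divided likewise. ckbb was at 2405 and 2289 CPM in brain and 87.0 and 96.1 in marrow, while ckba was at 13.8 and 13.3 against 131 and 140. slc37a4a was at 1.93 and 1.53 CPM in brain against 50.2 and 55.3, and slc37a4b at 33.96 and 34.2 against 1.87 and 1.36. rnaseka was at 4.54 and 4.46 against 56.5 and 55.0 CPM, and rnasekb at 260 and 261 against 15.3 and 16.9. In each of these pairs the libraries of the tissues did not overlap, which held for every called gene and so adds nothing to the calls.

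Ligands and receptors of growth factors were among them. csf1a and csf1b encode ligands of the macrophage receptor Csf1r, and csf1a was at 1.93 and 3.79 CPM in brain and 0.113 and 0.340 in marrow, csf1b at 0.567 and 0.917 against 34.5 and 55.3. fgfrl1a, a decoy receptor of fibroblast growth factors, was at 7.71 and 6.91 against 156 and 103 CPM, and fgfrl1b at 48.3 and 48.2 against 4.86 and 4.37. hoxb6a was at 2.49 and 3.42 against 41.8 and 44.2 CPM, and hoxb6b at 3.01 and 3.67 against 0.113 and 0.227. The remaining pairs of this rank rest on low counts in 1 member: gcgb, a proglucagon gene, had 25 reads in brain and 2 in marrow (ratio 12.99, 3.24 to 113), a call that ended without brain replicate 2, and fabp11b, a fatty acid binding protein gene, had 36 and 0 (at least 12.5-fold). dhrs11a was at 12.2 and 10.4 against 0.339 and 0.510 CPM, with dhrs11b at 15.99 and 16.1 against 214 and 146.

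**Figure D5:**
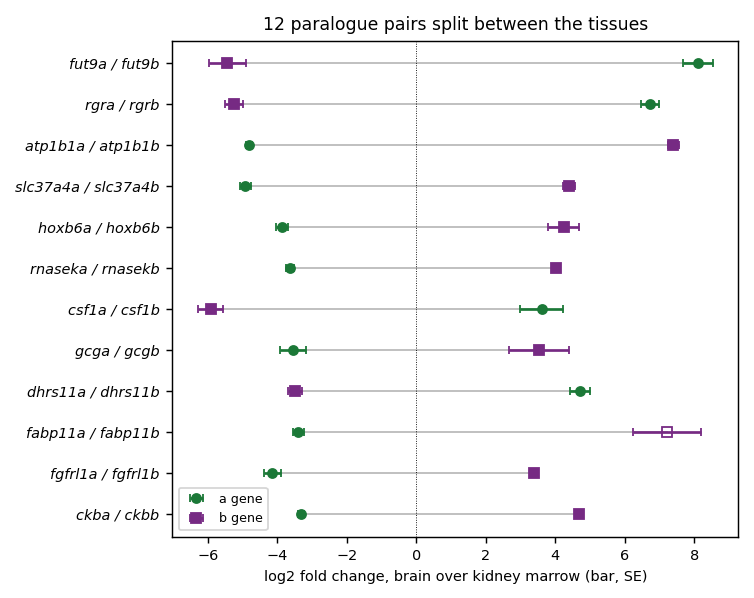
Log2 fold change with SE of the a gene (circle) and b gene (square) of the 12 split pairs with the largest smaller difference, from fut9 (8.10 and -5.43) to ckb (-3.32 and 4.68). The open square, fabp11b, had 0 reads in both marrow libraries and is drawn at a fitted value that is not a bound.

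Among 54 glycolytic and related isozyme genes, 22 were called higher in each tissue (40.7% each, median 0.13), near the shares of all tested genes (38.9% and 39.2%). aldocb, the brain aldolase, was at 2685 ± 70.4 CPM in brain and 165 ± 28.4 in marrow. gapdhs was at 1954 ± 48.9 against 439 ± 37.3 CPM and gapdh at 12.9997 ± 4.35 against 1374 ± 4.86. eno1a and eno3 divided as well, at 1107 ± 1.597 against 238 ± 57.0 and at 26.9 ± 0.358 against 695 ± 15.1 CPM.

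Ribosomal protein genes were higher in kidney marrow nearly throughout. Of 78 cytosolic ribosomal protein genes, 76 were called higher in marrow, 1, rps8b, higher in brain and 1, rpl37, not called (median -2.80). They summed to 15001 and 14962 CPM in brain against 98081 and 110644 in marrow. rpl3 was at 463 ± 1.19 and 3607 ± 265 CPM, while rps8b was at 67.1 ± 0.801 and 10.2 ± 0.182. Respiratory chain subunits had a median of -0.23, with 12 of 81 called higher in brain (14.8%) and 38 in marrow (46.9%). Proteasome subunits had a median of -0.14, with 6 of 43 called higher in brain (13.95%) and 19 in marrow (44.2%). Among all tested genes these shares were 38.9% in brain and 39.2% in marrow. The marrow shares of both lists thus lay nearer to those of all genes than the brain shares did. The proteasome median became 0.0853 under library totals alone. Several proteasome calls were small and depended on the processing. The brain calls of psmd12 (0.30), psmc1b (0.36) and psmd4b (0.30) and the marrow call of psmd1 (-0.21) ended with DESeq2. Those of psmc4, in brain, and psmb4, in marrow, ended without brain replicate 1 (0.42 and -0.40) or 2 (0.46 and -0.30). In the ablated libraries the proteasome median was -0.63, with 36 of 43 genes higher in marrow and 1 in brain.

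Among the 100 genes with most reads in each tissue, 15 were shared, and together they took 18.5% of gene reads in brain and 19.3% in marrow, most of it zgc:158463. Of the 15, 14 were called higher in marrow and zgc:158463 was not called. actb2, a cytoplasmic actin, was at 3436 and 3392 CPM in brain and 14771 and 14215 in marrow (-2.09, SE 0.08). The chaperone genes hsp90ab1 and hspa8 were at 2561 and 2565 against 6161 and 6761 CPM and at 1542 and 1575 against 4212 and 4151. Elongation factors showed a larger difference, with eef1a1l1 at 1302 and 1274 against 10130 and 11133 CPM (-3.05, SE 0.09). sepp1a, the selenium carrier of plasma, was at 1115 and 1222 against 14776 and 20119 CPM.

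Genes shown to differ little were fewer. For 1146 genes at 50 CPM or more in both tissues the 95% interval of the log2 fold change lay within 1 of 0. They are 8.86% of all 12936 tested genes, which include genes under 50 CPM that the rule could not admit. The share is therefore not comparable with the shares of called genes. ddx5, an RNA helicase, was at 1267 and 1335 CPM in brain and 1066 and 1225 in marrow, a log2 fold change of 0.18 with an interval of -0.06 to 0.42. itm2ba was at 996 and 977 against 878 and 893 CPM (0.16, -0.03 to 0.34). tubb4b, a beta tubulin gene, was at 878 and 884 against 780 and 763 (0.19, 0.01 to 0.38). Others of the most abundant were called higher in marrow by less than 2-fold, such as cfl1 (-0.40) and ccni (-0.35), whose calls ended under library totals alone (-0.17 and -0.13) and without either brain library. atp5b, a subunit of ATP synthase and a shared high gene, was called at -0.47, a call that ended under library totals alone (-0.25) and without brain replicate 2 (-0.43). Under library totals alone ddx5 (0.40), itm2ba (0.38) and tubb4b (0.42) were called higher in brain, and each was also called with at least 1 marrow library left out. In the fit of all 8 libraries itm2ba (0.21) and tubb4b (0.25) were called higher in brain. tubb4b was called with RLE size factors, another scaling, as well (0.21).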

How the data were processed

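Total RNA of snap-frozen brain and whole kidney was sequenced. The deposited files hold whole-number read counts per gene as the authors made them with HTSeq, with no normalization. The submitters' processing notes name HTSeq 1.6.1, TopHat2 2.1.1, Trim Galore (0.6.4, 0.4.1) and the build danRer10. No source used here gives the annotation or strand setting, so overlapping and antisense genes may share reads. Of 14781 genes, 12936 passed filterByExpr in edgeR 4.0.16 (R 4.3.3). Counts were scaled by TMM and tested with glmQLFit and glmQLFTest, with Benjamini-Hochberg adjustment over all tested genes at 0.05. SE came from the F statistic. The 5 summary lines were left out. Reads without molecular identifiers are not independent molecules, so counting intervals cover counting error only. Named genes are the most abundant restricted genes and called list members, the most divided pairs, the most abundant shared and level genes, the largest differences and known defining genes. Clone-named genes were left out of the largest differences, shared and level genes too, which the written rule did not state. Members, lists and rules were chosen with earlier results of these data known. Alternatives were DESeq2 1.42.0, other scalings and filters, a replicate block and leaving out each library.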

Additional observations from a re-analysis of the deposited data

Results flagged for a closer look

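An edgeR interaction test on all 8 libraries called a different tissue difference in uninjured and ablated fish for 34 of 13077 genes. Before adjustment, 2091 genes had p under 0.05 in this test, and a gene not called is not shown to be unchanged. Among the 14 genes called in opposite directions in the uninjured and ablated fits of the same libraries, 2 were called. These 14 were chosen for that pattern, so their tests are no independent evidence of it. esm1, an endothelial secreted protein gene, was at 14.8 and 15.3 CPM in uninjured brain and 5.29 and 4.79 in uninjured marrow, but at 12.6 and 13.2 CPM in ablated brain and 23.2 and 36.4 in ablated marrow. The tissue difference was 2.78 larger on the log2 scale in uninjured fish (SE 0.30, adjusted p = 0.0245). hars, a histidyl-tRNA synthetase gene, was at 87.8 and 89.4 against 73.6 and 71.1 CPM in uninjured fish and at 87.8 and 83.1 against 124 and 126 after ablation, a difference of 0.84 (SE 0.10, adjusted p = 0.0328). The other 12 had adjusted p of 0.0523 to 0.131.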

How the results depend on the processing

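The count of split paralogue pairs was 142 to 276 when a library was left out, and 116 when both members had to differ at least 2-fold. Brain-restricted genes numbered 159 to 227 with a library left out and marrow-restricted genes 74 to 91. When a library is left out, the read and CPM limits of the rule also cover fewer libraries. With at most 10 reads in each library of the low tissue the counts were 409 and 200, with 0 reads 21 and 10, and with at least 20 CPM in the high tissue 35 and 16. With at least 2 CPM, 117 genes were marrow-restricted. Shared high genes numbered 8 among the top 50 and 37 among the top 200, and 609 genes had an interval within 1.5-fold. Against a log2 fold change of 1, glmTreat called 3102 genes higher in brain and 3207 in marrow. The median of the proteasome list became 0.0853 with library totals only, where 5773 and 4414 genes were called. DESeq2 called 4765 and 4704. Without zgc:158463, an alternative chosen after seeing the data, 163 genes were brain-restricted. Of 4528 values of 379 named genes, 99 changed their call or moved, and none changed sign. The causes were not tested.

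With the replicate number as a block, 5087 and 5120 genes were called, with 231 split pairs. Deviations of same-numbered libraries correlated at 0.137, and nothing in the labels pairs them, so the numbers give no pairing from the design. Levels per kilobase and protein identity of pairs were not run. With 2 libraries per tissue, a single library can decide a call, and genes at a few reads carry wide intervals.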
